A study of Homo sapiens with 6 samples.

Results

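The genes described here encode 9 enzymes listed under estrogen synthesis and inactivation, not all of which act mainly on estrogens: HSD17B1, HSD17B2, HSD17B4, HSD17B8, HSD17B11, HSD17B12, STS, SULT1E1 and SULT2B1. They were chosen by name, as the rows of the raw count table with these symbols, out of 26364 genes listed there. Counts were above 0 for 7 of the 9, and those 7 were tested. The 6 RNA-seq libraries came from Ishikawa cells, a line of endometrioid adenocarcinoma, the gland-forming cancer of the uterine lining. The groups were the parental line given 0.1% DMSO (1 library), the parental line given 10 nM E2, which is estradiol (1 library), ETV4 knockout clones 1 and 2 given DMSO (2 libraries) and the same clones given E2 (2 libraries). ETV4 is a transcription factor of the ETS family, and the series asked what its loss does to gene expression and to the estrogen response. All lines had been kept in hormone-depleted medium for 5 days before treatment. The treatment lasted 8 h according to the protocols and 1 h according to the sample characteristics, and the labels do not settle which. Each knockout line is a single clone, and the way the knockout was made is not given in the sources used here. No label says that libraries came from separate cultures beyond the 3 lines. The p-values therefore measure at most the spread between these libraries, and some fits below take their spread from all genes instead.

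Estrogen activity in the endometrium depends on local conversion as well as on supply from blood. Enzymes of the HSD17B family interconvert estrone, a weak estrogen, and E2, the potent one, and several of them also act on fatty acids. Sulfotransferases attach a sulfate group that stops a steroid from binding its receptor, and steroid sulfatase removes it again. In normal endometrium HSD17B2 and SULT1E1 are known as genes of the progesterone-dominated phase of the cycle, when estrogen action is damped.

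The library totals ran from 28037392 to 36829479 counts, and between 17755 and 18658 genes had at least 1 count. ETV4 had 19.7 (DMSO) and 28.4 (E2) CPM in the parental libraries, where CPM are counts scaled to the TMM-adjusted library size, and 2.41 to 3.42 CPM in the 4 clone libraries. GREB1, a textbook estrogen target, went from 5.14 to 9.77 CPM in the DMSO libraries to 50.1 to 66.4 CPM in the E2 libraries, so each line responded to the hormone. The 7 epithelial markers were all expressed, with a summed level of 2407 to 3320 CPM. Summed markers of other cell types were 48.6 to 86.6 CPM for the 6 stromal genes, 2.29 to 4.76 CPM for the 5 immune genes and 1.65 to 4.57 CPM for the 4 endothelial genes. CD3E and MS4A1 had 0 counts in every library, and DCN, LUM, PECAM1 and CDH5 had at most 3. Other markers on the same lists were counted: COL1A1 at 1306 to 2814 counts, COL3A1 at 39 to 364, THY1 at 22 to 68, CD68 at 65 to 171 and VWF at 48 to 142, and their part in the results was not tested. The parental DMSO library had the lowest scaling factor (0.899, against 1.00 to 1.05 in the others) and the fewest genes detected (17755). Between the parental E2 and DMSO libraries 16.4% of tested genes differed at least 2-fold. Against the parental DMSO library it was 8.72% for clone 1 and 15.7% for clone 2 in DMSO. In E2 the clones differed from the parental line for 6.73% and 6.17%, and E2 from DMSO within the clones for 5.97% and 6.41%. The cause was not tested. In bulk RNA of this kind, fewer cells of a type and less RNA per cell cannot be told apart.

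The upstream sequences of 3 members are shown because SULT1E1 and SULT2B1 had the largest E2 estimates over the lines, and HSD17B11 differed most between the parental line and the clones in its E2 change. Each run is the 250 bases before the start site listed for that gene in the RefSeq table of build GRCh38.p14, written 5′ to 3′ on the gene's strand. Any other transcript starts of these 3 genes were not searched. The files themselves were made on hg19. Capitals mark letters of 5 motifs searched on both strands: the full palindromic estrogen response element, its single arm AGGTCA, the ETS cores CGGAAG and AGGAAG, and the AP-1 site TGANTCA. The single arm can overlap one end of a full element, and a stretch cannot match both ETS cores at the same position.
SULT1E1 (chr4:69860146-69860395, minus strand): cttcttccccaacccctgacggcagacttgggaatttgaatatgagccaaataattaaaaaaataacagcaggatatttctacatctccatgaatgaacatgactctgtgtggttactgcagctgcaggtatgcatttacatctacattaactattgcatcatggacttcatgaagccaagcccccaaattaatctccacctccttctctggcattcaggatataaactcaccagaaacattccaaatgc
SULT2B1 (chr19:48551922-48552171, plus strand): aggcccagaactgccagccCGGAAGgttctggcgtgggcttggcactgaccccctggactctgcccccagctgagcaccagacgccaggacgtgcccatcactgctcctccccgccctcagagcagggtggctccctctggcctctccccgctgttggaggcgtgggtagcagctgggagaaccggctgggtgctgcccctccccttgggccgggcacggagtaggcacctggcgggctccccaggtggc
HSD17B11 (chr4:87391189-87391438, minus strand): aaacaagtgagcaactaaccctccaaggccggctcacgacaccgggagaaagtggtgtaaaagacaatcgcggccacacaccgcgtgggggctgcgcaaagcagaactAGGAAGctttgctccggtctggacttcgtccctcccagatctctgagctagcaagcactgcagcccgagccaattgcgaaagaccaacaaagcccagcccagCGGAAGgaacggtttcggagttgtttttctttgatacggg

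The window of HSD17B11 held 1 CGGAAG and 1 AGGAAG, that of SULT2B1 held 1 CGGAAG, and that of SULT1E1 held none of the 5. Among 34788 RefSeq windows of this length, 16.5% held CGGAAG, 28.7% AGGAAG, 12.0% AGGTCA, 6.59% the AP-1 site and 0.0402% the full element. The SULT1E1 window was 40.8% G and C, against 56.0% for HSD17B11 and 70.8% for SULT2B1. These matches are letters in a window and carry no measurement of binding.

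Per length, HSD17B12 and HSD17B4 were the most abundant of the 7 counted members. Levels in this paragraph are CPM per kb of the longest protein-coding transcript in GENCODE 29. HSD17B12, which reduces ketoacyl-CoA in the elongation of very long fatty acids and can reduce estrone to E2, averaged 53.8 over the 6 libraries, with a range of 41.7 to 70.0. HSD17B4, a peroxisomal enzyme of fatty acid oxidation that also oxidises E2, averaged 48.5 (45.1 to 52.2), so these 2 genes overlapped. HSD17B11, a lipid droplet protein, followed at 22.4 (14.7 to 34.0), apart from its neighbours on both sides. SULT2B1, the sulfotransferase of cholesterol and pregnenolone, averaged 7.27 (5.61 to 9.11), and SULT1E1, the high-affinity estrogen sulfotransferase, averaged 6.24 (2.06 to 13.0), and these overlapped too. STS, which frees estrone and other steroids from their sulfates, averaged 1.77 (1.299 to 2.27). HSD17B1, which reduces estrone to E2, was lowest at 1.27 (1.20 to 1.39), and its range overlapped that of STS. With the shortest transcript of each gene in place of the longest, HSD17B1 stood at 5.01 and STS at 1.77, and the order of the others was the same. HSD17B1 and STS each have a related pseudogene, and how the counting divided reads between such copies is not given in the sources used here. In GENCODE, HSD17B1, HSD17B4, HSD17B11, HSD17B12 and SULT1E1 overlap other genes on their own strand, and HSD17B1, HSD17B4 and HSD17B12 also overlap genes or pseudogenes on the opposite strand. Whether the counting used strand is likewise not given, so reads of these partners cannot be told apart from those of the members.

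HSD17B2 and HSD17B8 were listed at 0 in all libraries, and their surroundings in the table differed. HSD17B2, the enzyme that oxidises E2 to estrone, had 0 counts, which allows up to 3 counts, or 0.0802 to 0.103 CPM depending on the library, counting error only. Of its 20 nearest coding neighbours in the table (10 on each side in RefSeq order), 16 had over 100 counts in some library. HSD17B8, a mitochondrial enzyme that oxidises E2 and takes part in fatty acid synthesis, was also at 0. Of its 20 neighbours, 10 were at 0 everywhere and 16 never passed 3 counts. They include RPS18, a ribosomal protein gene that every cell uses, which had at most 1 count in any library. For HSD17B8 the table therefore says only that it is listed at 0, and no floor or level is given. Silent neighbours also occurred around counted members. All 20 neighbours of SULT1E1 had at most 3 counts, while SULT1E1 itself had 107 to 828, and 8 of the 18 neighbours of STS were at 0 in every library.

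**Figure D1:**
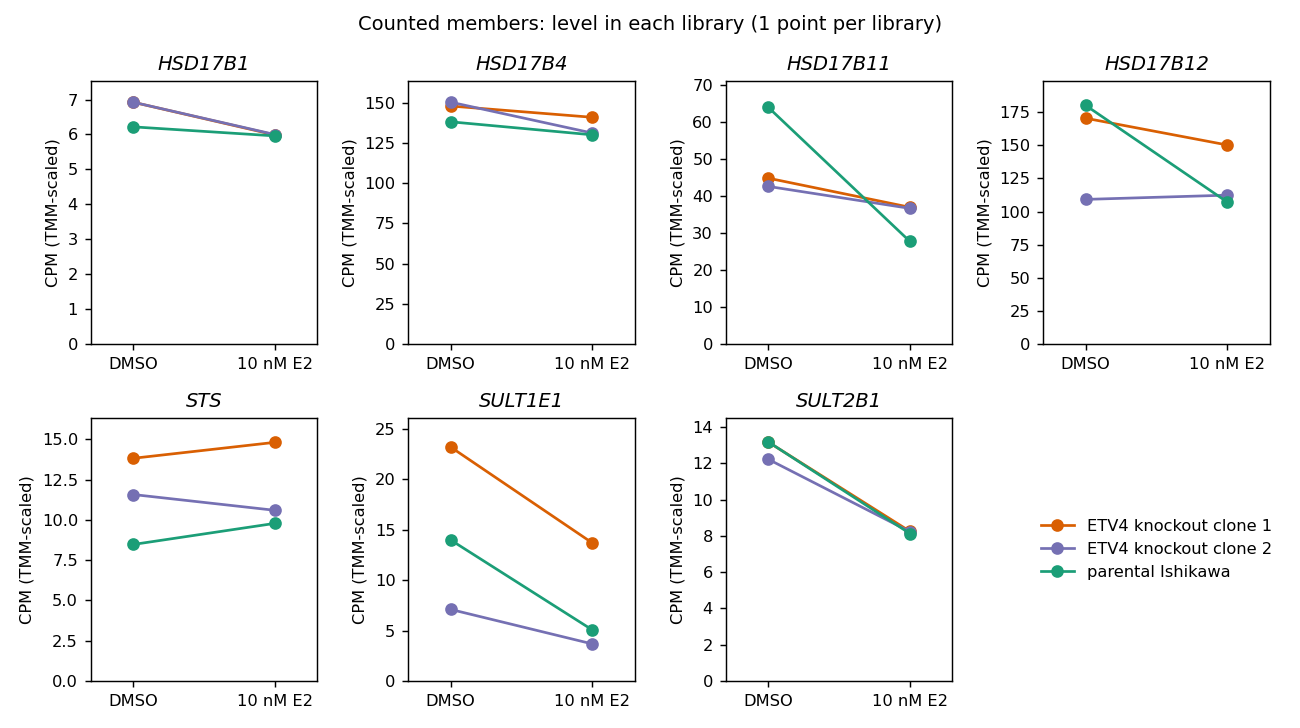
Level of each counted member in each library, in TMM-scaled CPM from 0 upwards, with 1 point per library and a line joining the DMSO and the E2 library of a line. SULT2B1 drops along almost the same path in all 3 lines, from 12.2 to 13.2 CPM down to 8.12 to 8.24 CPM, while the 3 paths of SULT1E1 run far apart.

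The first comparison asked how E2 changed these genes over the 3 lines. The 2 sulfotransferases were the members with the largest change, both lower in E2. SULT1E1 fell by 1.06 on the log2 scale (SE 0.18) when the DMSO and E2 libraries of a line were paired, and SULT2B1 was lower by 0.65 in the same fit (log2 change -0.65, SE 0.13) without passing. HSD17B11 was lower mainly in the parental line, and HSD17B1, HSD17B4 and STS had the estimates closest to 0.

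SULT1E1 went from 23.2 CPM with DMSO to 13.7 CPM with E2 in clone 1, from 7.09 to 3.67 CPM in clone 2, and the parental line went from 13.98 to 5.05 CPM. E2 was lower within every line, yet the groups overlapped, because clone 1 in E2 was close to the parental line in DMSO and above clone 2 in DMSO. The fold decrease was 1.69 in clone 1, 1.92 in clone 2 and 2.75 in the parental line. Without the pairing the log2 change was -1.02 (SE 0.58) with an adjusted p of 0.349. With line as the replicate block the change was -1.06 (SE 0.18) with an adjusted p of 0.0452.

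SULT2B1 went from 13.2 to 8.24 CPM in clone 1, from 12.2 to 8.23 CPM in clone 2 and from 13.2 to 8.12 CPM in parental cells. All 3 E2 libraries were below all 3 DMSO libraries, with means of 8.20 ± 0.0644 CPM and 12.9 ± 0.553 CPM (SD, n = 3). The log2 change was -0.65 (SE 0.14), a decrease of 1.57-fold, with an adjusted p of 0.0985, and 0.0617 with the replicate block. DESeq2's Wald test, which sets its own spread, gave an adjusted p of 0.00759. The fold decrease was 1.59 in clone 1, 1.48 in clone 2 and 1.62 in the parental line.

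HSD17B11 went from 44.9 to 37.04 CPM in clone 1, from 42.7 to 36.7 CPM in clone 2 and from 64.1 to 27.8 CPM in parental cells. The E2 libraries lay below the DMSO libraries without overlap, with the parental line at both extremes. The log2 change over the lines was -0.57 (SE 0.20) with an adjusted p of 0.205. HSD17B12 had 170.4 and 150.2 CPM in clone 1, 109 and 112 CPM in clone 2, and 180.1 and 107 CPM in the parental line, so clone 2 in DMSO was already close to the parental E2 level. Its log2 change was -0.31 (SE 0.23) with an adjusted p of 0.461.

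HSD17B1 stood at 6.92 and 5.99 CPM in clone 1, 6.92 and 5.998 CPM in clone 2, and 6.22 and 5.96 CPM in the parental line, a log2 change of -0.16 (SE 0.16). HSD17B4 stood at 148 and 141 CPM in clone 1, 150.3 and 131 CPM in clone 2, and 138 and 130.04 CPM in the parental line, a log2 change of -0.12 (SE 0.11). STS was the member with a positive estimate, 0.07 (SE 0.19), and clone 2 went against it, with 11.6 CPM in DMSO and 10.6 CPM in E2 against 13.8 and 14.8 CPM in clone 1. None of these 3 passed, with adjusted p-values of 0.579, 0.552 and 0.846.

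Without the pairing edgeR called 0 of the 7 tested members at an adjusted p of 0.05, where it called 1.13% of all 15611 tested genes. At an unadjusted p under 0.05 edgeR had 2 members, beside 20.4% of all genes, and DESeq2 had 3, beside 20.8%. After adjustment DESeq2 called 1 member and 7.58% of genes. With the replicate block 1 of 7 passed, SULT1E1, where 2.46% of all genes did and 0.743% did so downwards. The median log2 change over the 7 was -0.31, against -0.02 over all tested genes, with 6 of the 7 estimates negative against 51.8% of all genes. The 3 members without overlap between treatments, HSD17B1, HSD17B11 and SULT2B1, were all lower in E2, which was true of 10.5% of tested genes. For HSD17B1 this rests on the scaling, because its parental log2 ratio was -0.06 here and 0.11 with total-count scaling. Leaving out clone 2 gave 3 called members (HSD17B11, SULT1E1 and SULT2B1) and 21.6% of all genes. Leaving out clone 1 gave 1 (SULT1E1) and 4.83% of genes, and leaving out the parental line gave 0. With 1 clone left out, genotype in the model equals line, so those fits pair the libraries of a line. The fit without the parental line is the unpaired fit of the clones, so its 0 cannot be compared with them. Paired, the clones alone gave 2 members and 15.0% of genes.

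**Figure D2:**
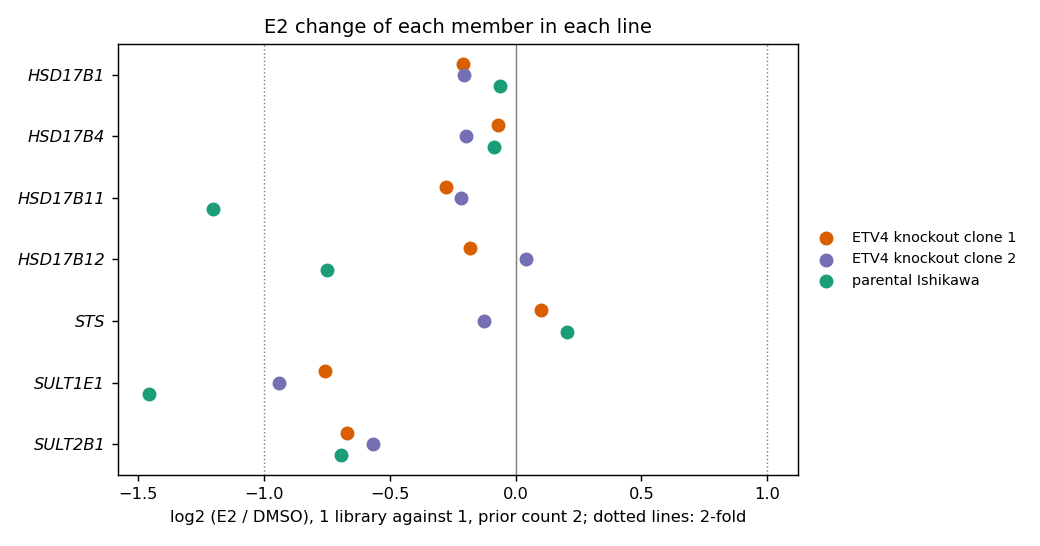
Log2 ratio of E2 to DMSO for each member in each line, 1 library against 1 with a prior count of 2, and dotted lines at 2-fold. SULT1E1 and SULT2B1 lie left of 0 in all 3 lines, and HSD17B11 passes the 2-fold line in the parental line at -1.20 while the clones lie at -0.28 and -0.22.

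The clones were also tested alone, to see which members responded to E2 where ETV4 was knocked out. SULT1E1 and SULT2B1 fell in the paired fit, by 0.85 (SE 0.16) and 0.63 (SE 0.16) on the log2 scale, with adjusted p-values of 2.38e-06 and 8.92e-04. In the unpaired fit the changes were -0.81 (SE 0.72) and -0.63 (SE 0.19), with adjusted p-values of 0.808 and 0.406, and 0 of 7 members passed where 0.329% of 14881 genes did. At an unadjusted p under 0.05 edgeR had 1 member, beside 8.70% of all genes, and DESeq2 had 1, beside 7.98%, with 0 members and 2.08% of genes called by DESeq2 after adjustment. In the paired fit 2 of 7 passed, both lower, where 15.0% of all genes passed and 6.42% did so downwards. That fit has 1 residual degree of freedom and takes its spread from all genes, with an infinite median weight (prior degrees of freedom) on that shared spread. Its p-values therefore rest on the spread of other genes, and a typical gene's own spread between libraries had no weight. HSD17B11 was at -0.26 (SE 0.13), HSD17B1 at -0.22 (SE 0.18), HSD17B4 at -0.14 (SE 0.14), HSD17B12 at -0.08 (SE 0.14) and STS at -0.02 (SE 0.15) in the paired fit, and none of these passed.

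In the parental line, with 1 library per treatment and so no test, 2 members were at least 2-fold lower in E2, SULT1E1 at -1.46 and HSD17B11 at -1.20 on the log2 scale. With total-count scaling, which moved the members' parental ratios up by 0.18 (median), the negative parental ratios of HSD17B1 and HSD17B4 turned to 0.11 and 0.09. Of all tested genes 5.02% were at least 2-fold lower there, against 2.10% in clone 1 and 2.47% in clone 2. Ranked from the most negative ratio upwards among all tested genes, SULT1E1 was at percentile 1.2 by its parental change, 4.2 by that of clone 1 and 2.8 by that of clone 2. HSD17B11 was at percentile 2.5 by its parental change, but at 20.1 and 21.6 by those of the clones.

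The knockout comparison, which shares these libraries with the E2 comparisons, found the members on both sides of the parental level. No member passed the test over both treatments, and the 2 clones disagreed most on SULT1E1. STS, the sulfatase, was the member whose 4 clone libraries all lay above both parental ones. HSD17B11 was lower than parental in DMSO and higher in E2 in both clones.

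STS stood at 13.8 and 14.8 CPM in clone 1, at 11.6 and 10.6 CPM in clone 2, and at 8.47 and 9.78 CPM in the parental line, for DMSO and E2 in that order. The lowest clone library and the highest parental library were less than 1 CPM apart. The log2 difference between clones and parental line was 0.48 (SE 0.20), with an adjusted p of 0.435. Such a split without overlap, with the clones higher, was found for 8.53% of tested genes. Without clone 2 the difference was 0.65, and without clone 1 it was 0.27. Each of these fits has 1 line on each side, so its calls cannot measure knockout against the spread between lines. The fit without clone 2 called 6.41% of all genes and the fit without clone 1 called 4.09%.

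SULT1E1 in clone 1 was 1.66-fold above the parental level in DMSO and 2.69-fold above it in E2, while clone 2 was below it, by 1.96-fold in DMSO and 1.37-fold in E2. Clone 1 thus had 3.25 times the level of clone 2 in DMSO and 3.69 times in E2. Of all tested genes 3.34% were at least 2-fold lower in clone 2 than in clone 1 in DMSO and 3.56% in E2. The fitted difference between clones and parental line was 0.43 (SE 0.62), and it was 1.07 without clone 2 and -0.74 without clone 1. A single clone therefore set the direction.

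**Figure D3:**
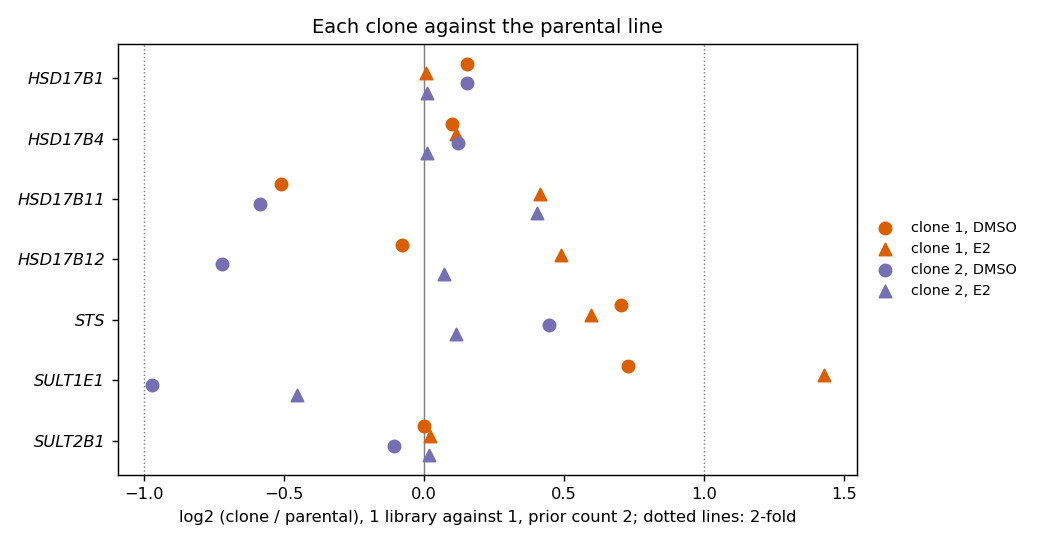
Log2 ratio of each clone to the parental line for each member, with circles for DMSO and triangles for E2, 1 library against 1 with a prior count of 2. The 2 clones lie on opposite sides of 0 for SULT1E1, and circles and triangles lie on opposite sides of 0 for HSD17B11.

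Over both treatments 0 of the 7 members passed, where 0.327% of all genes did (0.295% with line as a random block, again with 0 members), and 1 had an unadjusted p under 0.05 in edgeR, beside 11.4% of all genes. DESeq2 also had 1, beside 12.0%, and called 0 members and 2.97% of genes after adjustment. The other differences were 0.09 (SE 0.12) for HSD17B4, 0.08 (SE 0.17) for HSD17B1, -0.02 (SE 0.15) for SULT2B1, -0.05 (SE 0.25) for HSD17B12 and -0.10 (SE 0.21) for HSD17B11. Within DMSO, where each test sets 2 clones against 1 library, 0 members passed and 0.00641% of all genes did. Within E2, 0 passed and 0.0128% of all genes did. HSD17B11 differed by -0.55 (SE 0.15) in DMSO and by 0.41 (SE 0.16) in E2, with unadjusted p-values of 0.0113 and 0.0429 and adjusted p-values of 0.189 and 1.00. With the GC and length correction described further on, the difference was -0.14 (adjusted p 0.632) in DMSO and 0.33 (adjusted p 0.847) in E2. HSD17B11 was the member with an unadjusted p under 0.05 in each treatment by edgeR, where 20.8% of all genes had one in DMSO and 4.62% in E2. DESeq2 had 1 such member in DMSO, beside 19.2% of genes, and 0 in E2, beside 3.40%. It called 0 members in both, beside 7.62% and 0.575% of genes. SULT2B1 was the closest to the parental level, with 0.93 to 1.01 times that level in each clone and treatment.

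The interaction asked whether the E2 change of a member differed between the clones and the parental line. HSD17B11 differed in the paired fit: its E2 change was -0.28 in clone 1 and -0.22 in clone 2, against -1.20 in the parental line. HSD17B12 did as well, with -0.18 and 0.04 in the clones against -0.75. SULT2B1 had nearly the same change in all lines, and its interaction was 0.07 (SE 0.27), a difference that at this precision does not show that the lines respond alike.

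The interaction of HSD17B11 was 0.96 in both fits, with an adjusted p of 0.617 (SE 0.22) unpaired and 4.79e-04 (SE 0.22) with the replicate block. For HSD17B12 it was 0.66 (SE 0.44) unpaired with an adjusted p of 0.650 and 0.68 (SE 0.25) with the block and 0.0425. SULT1E1 was at 0.63 (SE 0.27) with the block and an adjusted p of 0.0978, HSD17B1 at -0.15 (SE 0.31), HSD17B4 at -0.05 (SE 0.25) and STS at -0.22 (SE 0.26). Unpaired, 0 of 7 members passed and 0 of 15611 genes did, with 1 member at an unadjusted p under 0.05 by edgeR (7.62% of genes) and 1 by DESeq2 (7.70% of genes), HSD17B11 in both. DESeq2 gave an adjusted p to only 1992 genes, of which it called 1.46%, and to HSD17B4 and HSD17B12 alone among the members, so the other 5 could not be called by it. With the block 2 of 7 passed where 15.8% of all genes did. That fit again had 1 residual degree of freedom and took its spread from all genes. These calls rest on 1 parental library per treatment, and no fit without the parental line can give them.

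GC content moved with the E2 change in the parental line, and the members were spread over it. That change rests on a single parental DMSO library, so a response to E2 and a trait of that library cannot be told apart. HSD17B11 and HSD17B12 transcripts were 40.3% G and C and that of SULT1E1 36.9%, in the lowest of 5 equal bins of tested genes. All genes of that bin had a median E2 change of -0.30 in the parental cells, -0.05 for clone 1 and 0.05 for clone 2. SULT2B1, at 59.9%, was in the highest bin, where the medians were 0.35, 0.08 and 0.01, so it was lower in E2 where most genes of its GC content were not. HSD17B4 at 44.2% and STS at 43.1% were in the second bin, with a parental median of -0.15, and HSD17B1 at 55.2% was in the fourth, with 0.18.

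With each library's trend on GC content and transcript length removed, an alternative chosen after seeing the data, the paired interaction was 0.47 (SE 0.15, adjusted p 0.0424) for HSD17B11, against 0.96 without the correction. It was 0.35 (SE 0.16, adjusted p 0.195) for HSD17B12, no longer past the threshold, in a fit that called 9.38% of all genes. In the same paired correction SULT1E1 changed with E2 over the 3 lines by -0.80 (SE 0.13, adjusted p 0.0192) and SULT2B1 by -0.58 (SE 0.10, adjusted p 0.0252), so both passed, beside 12.0% of all genes. In the clones alone both passed as well, beside 20.9%. The paired interaction of SULT1E1 was 0.03 (SE 0.24) after this correction, against 0.63 before it.

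**Figure D4:**
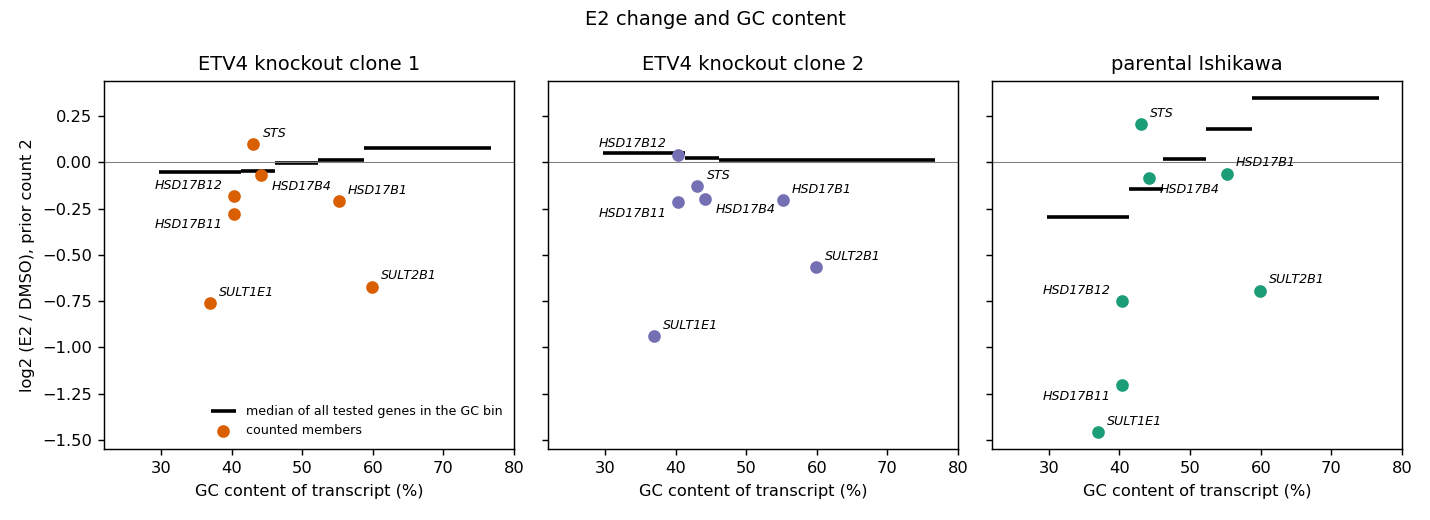
Log2 ratio of E2 to DMSO against the GC content of the transcript, with 1 panel per line, members as points and black bars for the median of all tested genes in each of 5 GC bins. The bars climb from -0.30 to 0.35 in the parental line and stay within 0.08 of 0 in the clones, and SULT1E1, HSD17B11 and HSD17B12 sit in the lowest bin.

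SULT1E1 had the widest range of the members across the 6 libraries, 6.33-fold in CPM. The 5 genes with the most similar pattern, by Pearson correlation of log2 CPM over the 6 libraries among 13307 genes averaging at least 1 CPM, were GABRP (0.993), HLTF (0.993), KLF6 (0.990), ATF6 (0.989) and GLYATL3 (0.987). GABRP, a GABA receptor subunit gene, ranged from 2.95 to 7.54 CPM, and GLYATL3, an acyltransferase gene, from 1.71 to 9.44 CPM. HLTF, the gene of a DNA-repair helicase, had the same order of libraries but a narrower range, 125 to 166 CPM. With 6 libraries from 3 lines these correlations are a description.

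Other genes of estrogen synthesis and inactivation were read from 7 lists with 82 genes, of which 18 had 0 counts everywhere and 52 were tested over the 3 lines. In the unpaired E2 comparison 1 of the 52 fell and 0 rose, where 1.13% of all genes changed, with a median log2 change of -0.20 against -0.02 over all genes. The one that fell was CYP1A1, which hydroxylates E2 as a step of its oxidative inactivation. It had 7.12, 6.04 and 5.68 CPM in DMSO in clone 1, clone 2 and the parental line, and 1.10, 0.925 and 1.20 CPM in E2, a log2 change of -2.54 (SE 0.23, adjusted p 0.00721). In the clones alone it fell by 2.71 (SE 0.29, adjusted p 0.0342) on the log2 scale, and it was again the only called gene of the 50 tested there, where 0.329% of all genes were called.

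By list, 0 of 14 other dehydrogenases and reductases of the HSD17B and AKR1C kind passed in the unpaired E2 test, 0 of 10 genes of upstream steroid synthesis, 0 of 10 of sulfation and sulfate donor supply, 0 of 5 of desulfation and deglucuronidation, 0 of 6 of conjugate transport, 1 of 6 of oxidative inactivation and 0 of 1 of glucuronidation. Aromatase, the CYP19A1 product that makes estrogens from androgens, had 2 counts in clone 1 in DMSO and 0 in the other 5 libraries. HSD3B1 and HSD3B2, which act upstream of it, had 0 counts in every library. These 3 genes were named after their values were seen. Of the 13 glucuronidation genes 9 were at 0. The UGT1A genes among them share exons, so a count of 0 is uncertain for those, as it is for SULT1A3, which has a near-identical copy and was also at 0.

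With the replicate block 9 of the 50 genes tested in the clones passed for E2, 3 higher and 6 lower, where 15.0% of all genes did. Among them, named after their values were seen, were the 3 reductases AKR1C1 at -0.82, AKR1C2 at -1.03 and AKR1C3 at -0.71 on the log2 scale. They act on ketosteroids, and as close paralogs their counts are uncertain. SULT1A2, a phenol sulfotransferase gene, went the other way from SULT1E1 and SULT2B1, at 0.74. Also higher were the transport genes SLCO4A1, the largest rise at 2.62, and ABCC1 at 0.56. Lower genes also included CYP1A1, the largest fall at -2.71, and TSPO at -0.54. Over the 3 lines with the block, 1 of 52 was higher and 2 were lower, where 2.46% of all genes passed. These were SLCO4A1 (2.365, adjusted p 0.0201), CYP1A1 (-2.54, 0.00501) and AKR1C2 (-1.125, 0.0275). AKR1C1 and AKR1C3 did not pass there (adjusted p 0.0655 and 0.0923). For the interaction 4 of 52 passed with the block, all with a less negative or more positive E2 change in the clones. These were AKR1C3 (1.09), HSD17B7 (1.01), CYB5A (0.81) and RDH11 (0.68). That fit called 15.8% of all genes, and 8.90% in that direction. For the knockout over both treatments 0 of the 52 passed with or without the block.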

How the data were processed

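Library preparation selected poly(A) RNA and used a KAPA kit that keeps strand, per the labels' protocols. Per the submitters' processing notes, HISAT2, SAMtools, Subread and DESeq2 were used on build hg19; versions, annotation and strand setting are not given in the sources used here. The authors deposited whole-number counts per gene, and a normalized signal that equals those deposited counts divided by 1 size factor per library (0.926 to 1.19). Column names write DMOS and ER, read here as DMSO and E2. The tests used the counts.

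The counts were tested with edgeR 4.0.16 under R 4.3.3. Genes passing filterByExpr (15611 of 26364; 14881 in the clones alone) were TMM-scaled and tested by quasi-likelihood, with Benjamini-Hochberg adjustment over all of them at 0.05. All p-values are from this test unless another tool is named. Single-library log2 ratios used a prior count of 2. The E2 effect over the lines had genotype in the model, the knockout effect had treatment, and within-treatment and interaction values came from a model of the 4 groups. All 9 members were named, and of the pathway lists up to 5 called genes per direction and comparison. ETV4, ESR1, PGR and GREB1 were context genes. Members and lists were chosen with earlier results of these data known. The labels join the 2 libraries of each line, so line was the replicate block: a fixed factor, or for the knockout a random effect in limma 3.58.1. The difference between the clones correlated between treatments at 0.626 across 15611 genes. In the random-effect fit of the knockout the estimated correlation within lines was 0.113. Without the block, the knockout test treated the 2 libraries of a line as independent. Other alternatives were DESeq2 1.42.0, limma-voom, other scaling and filters, and each line left out. The scripts were tested on simulated data. Sequences came from RefSeq, where HSD17B1, HSD17B2 and HSD17B12 had no entry in the promoter table used.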

Additional observations from a re-analysis of the deposited data

Results flagged for a closer look

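HSD17B11 and HSD17B12 had an E2 change that was smaller in the knockout clones than in the parental cells, by a test of that difference. With the replicate block the interaction of HSD17B11 was 0.96 on the log2 scale (edgeR quasi-likelihood, adjusted p 4.79e-04), and that of HSD17B12 was 0.68 (adjusted p 0.0425). Neither passed without the pairing. The paired fit called 15.8% of all genes, and 8.90% in this direction. It has 1 residual degree of freedom, takes its spread from all genes and rests on 1 parental library per treatment. Corrected for GC content and transcript length, the paired values were 0.47 (adjusted p 0.0424) and 0.35 (adjusted p 0.195).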

How the results depend on the processing

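The number of members past the threshold was 0 in every unpaired edgeR fit of all libraries, under both scalings, the 3 filters and limma-voom. For E2 over the 3 lines it was 1 in DESeq2 (SULT2B1), 1 with the replicate block, 2 with the block and the GC and length correction (1752 of 14607 genes called, against 427 with the correction alone and 176 without either), and 0 to 3 with a line left out. For E2 in the clones it was 2 with the block, with (20.9% of genes) or without (15.0%) the correction. For the knockout over both treatments, a fit without a clone has 1 line on each side, so its calls cannot measure knockout against the spread between lines. For the interaction it was 2 with the block and 1 with the block and the correction (9.38% of genes). The block changed no other member's call. The lone library of a group is assumed to vary like the others. Fits without 1 clone rest on 1 residual degree of freedom and take their spread from all genes. For E2 those fits pair the libraries of a line, while the fit without the parental line does not.

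Of 331 single-gene alternatives with a test 297 kept direction and call, 17 became called and 17 changed sign. Of 77 more with no test 7 changed sign. Those were SULT1E1 without clone 1 in the knockout difference (-0.97 in DMSO, -0.46 in E2), HSD17B12 without clone 1 (0.04) and STS without clone 2 (0.10) in the E2 change of the clones, HSD17B4 without clone 2 in the interaction (0.02), and HSD17B1 (0.11) and HSD17B4 (0.09) in the parental E2 change with total-count scaling. The correction for GC content and length was added after seeing the data. With it the E2 change of STS went to -0.0105, or -0.0156 with the block, and it ranged from -0.00851 to 0.157 with a line left out. The knockout difference with the correction was -0.0255 for HSD17B1, 0.0845 for HSD17B11, 0.0460 for HSD17B12 and 0.0972 for SULT2B1, and within DMSO -0.11 for HSD17B1 and 0.13 for SULT2B1. Without a clone it ranged from -0.74 to 1.07 for SULT1E1, from -0.338 to 0.202 for HSD17B12 and from -0.0588 to 0.00796 for SULT2B1. The knockout difference of SULT1E1 in DMSO was -0.0786 in limma-voom. The corrected interaction was 0.16 for HSD17B1, unpaired and paired, and -0.0721 for SULT2B1 unpaired and -0.0720 paired. The cause of these changes was not tested. A random block within 1 treatment could not be fitted, because the correlation within lines could not be estimated. Interaction and within-treatment values without a clone, and clone values without the other, have no test. How far depth limits the genes at 0 counts and the members near 6 CPM was not tested.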
